A study of Mus musculus with 12 samples.

Results

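The genes described are 10 macrophage genes for the uptake of modified lipoproteins and apoptotic cells: the scavenger receptors *Msr1*, *Marco*, *Cd36*, *Scarb1* and *Stab1*, the endocytic receptor *Lrp1*, the bridging ligand *Gas6* with its receptors *Axl* and *Mertk*, and the engulfment adaptor *Elmo1*. They were chosen by symbol, and all 10 were found among the 12960 genes of the count table and among the 10822 genes that passed the low-count filter. RNA was sequenced from bone marrow-derived macrophages (BMDMs) of WT mice and of mice null for AMPKβ1 (AMPKβ1-/-), the regulatory subunit through which PF-06409577 (PF) activates AMPK. Marrow of the tibia and femur was differentiated with L929 medium, a source of M-CSF, and the cells of each genotype were given vehicle (0.1% DMSO) or 10 μM PF for 6 h, and each of the 4 groups has 3 libraries. Both genotypes thus shared the culture medium and the DMSO, and the null allele was present in the whole animal from which marrow was taken. The labels do not say whether the 3 libraries of a group came from separate mice or cultures, so the p-values measure the spread between these libraries, which may be technical.

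Scavenger receptors bind oxidized and acetylated lipoproteins, bacteria and dying cells, and in the artery wall their lipoprotein uptake makes foam cells of macrophages. Efferocytosis, the clearance of apoptotic cells, starts when bridging proteins such as Gas6 attach to phosphatidylserine on the dying cell and bring it to receptors of the TAM family (Tyro3, Axl and Mertk). Engulfment adaptors such as Elmo1 then activate the GTPase Rac, which remodels actin around the target.

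The stretch of 250 bases before the start site is shown for 6 of these genes, grouped by how their transcripts differed between the libraries. *Cd36* and *Marco* had higher counts in AMPKβ1-/- than in WT BMDMs, and *Gas6* and *Axl* had lower counts. *Stab1* and *Lrp1* had lower counts with PF than with vehicle in WT BMDMs, as *Axl* also had. The trend of counts with GC content and gene length was also removed, as given below. *Lrp1* with PF in WT, and *Cd36* between genotypes with PF, then did not pass the test used. The sequences are from RefSeq on GRCm38.p6, run 5′ to 3′ on the strand of the gene, and end on the base before the start site. Of the 10 genes, 8 had an entry (all but *Msr1* and *Scarb1*). Capitals mark matches, on either strand, to 6 short motifs: the E-box CACGTG, the PU.1 core GAGGAA, the CCAAT box CCAAT, the GC box GGGCGG, the nuclear receptor site AGGTCA and the AP-1 site TGANTCA.
Cd36 (chr5:17835897-17836146, minus strand): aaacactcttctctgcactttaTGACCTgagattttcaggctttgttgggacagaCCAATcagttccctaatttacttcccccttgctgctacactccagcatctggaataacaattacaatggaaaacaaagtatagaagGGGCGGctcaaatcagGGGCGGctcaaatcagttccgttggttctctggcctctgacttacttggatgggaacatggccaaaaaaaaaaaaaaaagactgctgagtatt
Marco (chr1:120505025-120505274, minus strand): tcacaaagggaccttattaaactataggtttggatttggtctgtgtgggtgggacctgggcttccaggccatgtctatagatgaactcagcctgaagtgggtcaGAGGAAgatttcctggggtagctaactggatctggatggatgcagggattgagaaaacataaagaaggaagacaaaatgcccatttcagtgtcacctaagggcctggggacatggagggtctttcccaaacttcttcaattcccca
Gas6 (chr8:13494536-13494785, minus strand): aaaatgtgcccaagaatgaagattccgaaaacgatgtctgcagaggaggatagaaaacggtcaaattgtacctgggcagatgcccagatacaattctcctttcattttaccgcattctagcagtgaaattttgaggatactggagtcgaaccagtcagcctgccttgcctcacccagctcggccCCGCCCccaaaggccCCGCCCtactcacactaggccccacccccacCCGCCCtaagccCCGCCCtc
Axl (chr7:25788734-25788983, minus strand): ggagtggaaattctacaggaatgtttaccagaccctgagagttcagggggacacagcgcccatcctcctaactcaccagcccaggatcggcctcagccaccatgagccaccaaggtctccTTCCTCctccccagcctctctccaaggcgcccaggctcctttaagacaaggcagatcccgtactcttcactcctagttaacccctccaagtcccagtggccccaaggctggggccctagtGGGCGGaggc
Stab1 (chr14:31168642-31168891, minus strand): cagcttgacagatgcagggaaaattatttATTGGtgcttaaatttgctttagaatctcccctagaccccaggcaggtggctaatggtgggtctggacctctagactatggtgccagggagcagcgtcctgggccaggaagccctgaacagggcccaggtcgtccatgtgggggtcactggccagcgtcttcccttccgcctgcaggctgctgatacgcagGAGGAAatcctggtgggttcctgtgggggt
Lrp1 (chr10:127621149-127621398, minus strand): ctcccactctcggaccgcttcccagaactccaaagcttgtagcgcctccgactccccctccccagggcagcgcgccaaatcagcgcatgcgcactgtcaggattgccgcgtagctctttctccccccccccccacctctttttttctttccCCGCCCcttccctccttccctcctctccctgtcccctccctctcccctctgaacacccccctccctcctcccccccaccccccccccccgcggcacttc

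Among all 32851 start site windows of this length, 32.74% held a GC box, 33.85% a CCAAT box, 23.25% a PU.1 core, 14.02% a nuclear receptor site, 6.75% an AP-1 site and 6.02% an E-box. The window of *Cd36* held 1 CCAAT box, 1 nuclear receptor site and 2 GC boxes, and that of *Marco* held 1 PU.1 core. *Gas6* had 4 GC boxes within 66 bases of the start, and *Axl* had 1 GC box and 1 PU.1 core. *Stab1* had 1 PU.1 core and 1 CCAAT box, and *Lrp1* had 1 GC box. No match overlapped another in these windows. None of the 6 windows held an E-box or an AP-1 site in these letters. The windows of *Cd36* (43.2%) and *Marco* (47.6%) had less GC than those of *Gas6* (54.8%) and *Axl* (60%), with a median of 52.4% over all windows. *Msr1*, also higher in AMPKβ1-/- BMDMs, and *Scarb1*, also lower, had no window to compare. RefSeq places the start of *Cd36* inside the gene as GENCODE draws it, so this window is that of 1 of its promoters. The RefSeq starts of *Gas6* and *Axl* lie just outside the genes as GENCODE draws them, and motif positions count from the RefSeq start.

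The libraries held 8935609 to 14358180 counts assigned to genes, and a count of 0 allows up to 3 counts in a library, counting error only. *Prkab1*, which encodes AMPKβ1 and lies on chromosome 5 from 116013586 to 116024508, had 37.3 to 45.3 CPM (counts relative to library size, scaled by edgeR's TMM) in WT and 6.05 to 9.42 CPM in AMPKβ1-/- BMDMs, which fits the labels. Each of 10 macrophage markers was above 3 counts in every library, with a summed level of 24910 to 29560 CPM, while granulocyte markers summed to at most 1.57 CPM, lymphoid markers to at most 2.35 CPM and dendritic cell markers to at most 1.46 CPM. Of 8 endothelial markers, 5 were in the counts and *Tek*, *Tie1* and *Emcn* were not. They summed to 106.7 to 145 CPM in WT and 70.0 to 82.3 CPM in AMPKβ1-/- BMDMs. *Vwf* gave 90.0 to 114 CPM in WT and 55.9 to 66.2 CPM in AMPKβ1-/- BMDMs, and *Kdr* gave 13.9 to 35.2 and 10.6 to 14.4 CPM, while *Pecam1* reached at most 1.70 CPM. Fibroblast markers summed to 3.26 to 11.2 CPM in AMPKβ1-/- BMDMs with vehicle and to at most 3.48 CPM in each of the other groups. The highest *Col1a1* (3.37 CPM) and *Col1a2* (3.19 CPM) were both in AMPKβ1-/- vehicle library 1. Osteoclast markers summed to 23.9 to 31.6 CPM in WT and 16.8 to 20.1 CPM in AMPKβ1-/- BMDMs. The part of the fibroblast markers in the results was not tested. The libraries also differed in how counts followed the GC content of transcripts: the slope, in log2 CPM per 10 points of GC, was 0.34 to 0.69 in WT BMDMs with vehicle, −0.05 to 0.35 in WT BMDMs with PF, −0.34 to −0.09 in AMPKβ1-/- BMDMs with vehicle and −0.49 to −0.32 in AMPKβ1-/- BMDMs with PF. Values with this trend and that of gene length removed from every library are therefore given beside the results. That step also takes out any difference between groups that runs with GC content.

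Loss of AMPKβ1 went with higher *Cd36*, *Msr1* and *Marco* and with lower *Axl*, *Gas6* and *Scarb1*, a pattern seen with vehicle and again with PF. With vehicle, *Cd36* was 2.72-fold, *Marco* 2.39-fold and *Msr1* 2.35-fold higher in AMPKβ1-/- than in WT BMDMs, while *Axl* stood at 0.551, *Gas6* at 0.570 and *Scarb1* at 0.658 of the WT level. Genes were called at an adjusted p below 0.05 in edgeR's quasi-likelihood test with Benjamini-Hochberg adjustment over all tested genes, and a differentially expressed gene (DEG) also had a log2 fold change beyond 0.8 in size. By that test 6 of 10 were called, 3 higher and 3 lower, against 59.7% of all tested genes called (29.7% higher and 30% lower). Of the 10 genes, 5 were DEGs (*Cd36*, *Msr1*, *Marco*, *Axl* and *Gas6*), against 17.8% of all genes (16.1% higher and 1.76% lower). Their median log2 fold change was 0.01, beside −0.03 over all genes, and the libraries of the 2 genotypes did not overlap for 7 of 10, against 62.9% of all genes. With PF in both genotypes, 8 of 10 were called, 5 higher and 3 lower, against 47.1% of all genes (24.1% higher and 22.9% lower), and 3 were DEGs, against 14.3%. The median of the 10 was 0.26, where all genes had a median near 0, and the libraries did not overlap for 9 of 10, against 59.9%. The share of the 10 called with vehicle was close to the background. Among all genes, calls split into 3216 higher and 3249 lower with vehicle (4296 and 1600 with library size alone as the scaling) and into 2613 higher and 2481 lower with PF (3444 and 1359). After removal of the GC and length trend, *Msr1* was not called with either treatment and *Cd36* was not called with PF. The summed endothelial and osteoclast markers were lower in AMPKβ1-/- BMDMs, like *Axl*, *Gas6* and *Scarb1*, with *Vwf* and *Ctsk* as their highest genes. Single markers did not all follow. With PF, *Pecam1* had 0.958 to 1.57 CPM in AMPKβ1-/- and 0.257 to 0.562 CPM in WT BMDMs. *Mmp9* and *Dcstamp* overlapped between genotypes with PF. The part of these markers in the results was not tested. These 2 comparisons share no library with each other, but each shares libraries with the comparisons of PF against vehicle.

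With PF in WT BMDMs, *Stab1* fell by 34.2%, *Lrp1* fell by 27.7%, *Axl* fell by 17.7% and *Scarb1* fell by 17.1%. These were 4 of 10 called, all lower, against 15.9% of all tested genes called (6.99% higher and 8.95% lower), and none of them was a DEG, against 1.52% of all genes. When the 6 WT libraries were fitted alone, *Stab1* was still called, while *Lrp1*, *Axl* and *Scarb1* were not (adjusted p = 0.0595, 0.112 and 0.139), and with library size alone *Axl* and *Scarb1* were not (adjusted p = 0.0715 and 0.0693). After removal of the GC and length trend *Stab1* was called at −0.31 (adjusted p = 0.00899), and *Lrp1* at −0.16, *Axl* at −0.09 and *Scarb1* at −0.29 were not (adjusted p = 0.176, 0.358 and 0.066). Among all genes 756 were called higher and 969 lower, or 1045 and 587 with library size alone. The libraries of PF and vehicle did not overlap for 7 of 10 (1 higher and 6 lower), against 32.2% of all genes (14.2% higher and 18.1% lower). The median log2 fold change of the 10 was −0.23, where all genes had a median near 0. In AMPKβ1-/- BMDMs edgeR called 0 of 10, against 0.0554% of all genes, and DESeq2 and limma-voom called 0 as well. At an unadjusted p below 0.05 it was 1 of 10, *Msr1*, against 4.98% of all genes, and *Msr1* was also the 1 of 10 whose libraries did not overlap, against 14.5%. The difference between the responses (WT minus AMPKβ1-/-, an interaction term) was called by edgeR for 0 of 10, against 0.416% of all genes, and likewise for 0 by DESeq2 and by limma-voom. At an unadjusted p below 0.05 it was 4 of 10 (*Stab1*, *Lrp1*, *Scarb1* and *Elmo1*), against 14.3% of all genes, each with a more negative response in WT. So a response called in WT was not shown to differ from that in AMPKβ1-/- BMDMs for any of the 10. In bulk RNA, fewer cells of a type and less RNA per cell cannot be told apart.

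**Figure D1:**
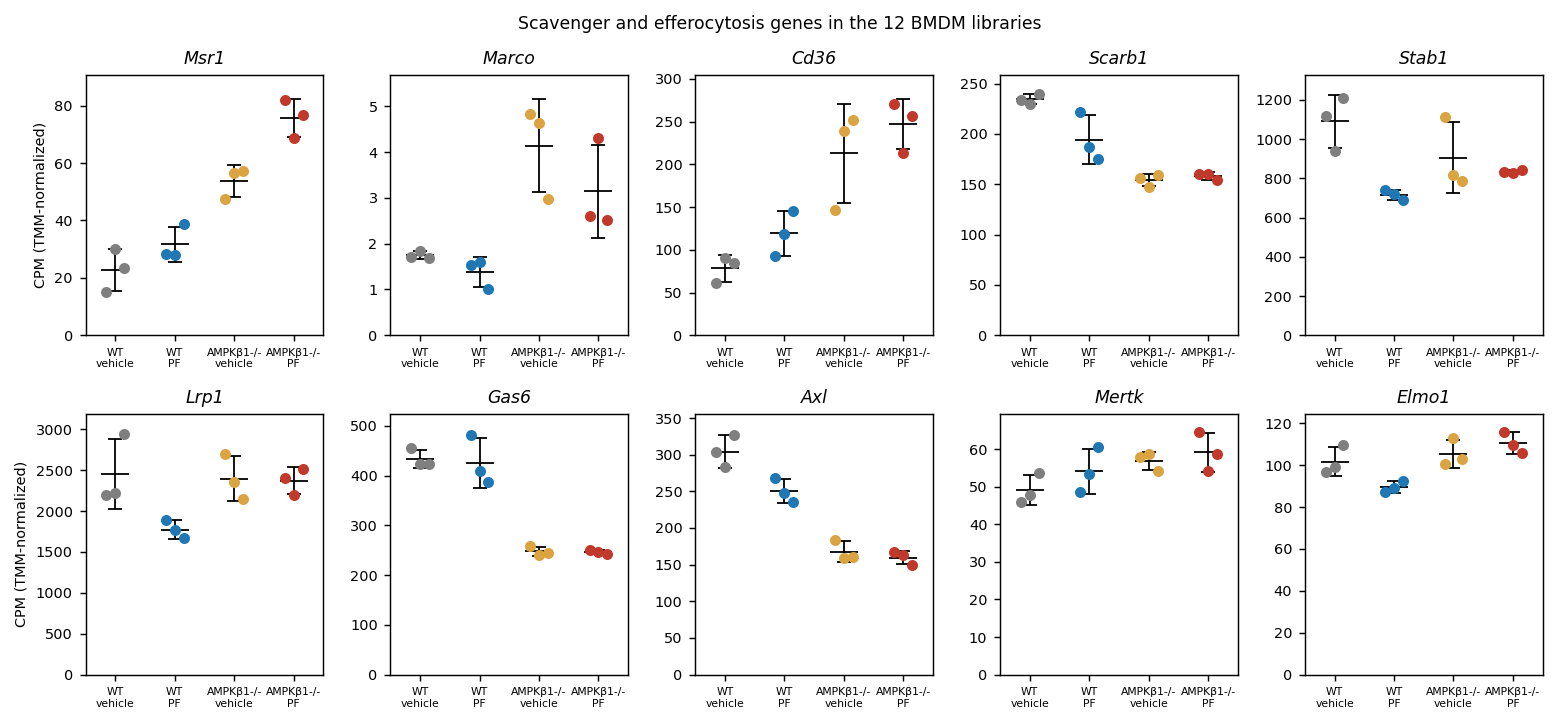
Level of each gene (CPM, TMM-normalized, vertical axes from 0) in the 4 groups of 3 BMDM libraries, with points for libraries and bars for the mean ± SD. *Cd36* and *Msr1* sit higher and *Gas6* and *Axl* lower in all 6 AMPKβ1-/- libraries than in all 6 WT libraries, while *Stab1* and *Lrp1* are lowest in the 3 WT libraries with PF.

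*Msr1* (class A scavenger receptor 1, which binds acetylated lipoproteins; chromosome 8 from 39581685 to 39642673) was present in WT BMDMs at 15.1, 29.9 and 23.3 CPM with vehicle and at 28.2, 28.0 and 38.7 CPM with PF. The AMPKβ1-/- cells had 47.5, 56.7 and 57.2 CPM with vehicle and 81.8, 68.6 and 76.6 CPM with PF. All AMPKβ1-/- libraries were thus above all WT libraries, and those with PF above those with vehicle in AMPKβ1-/- BMDMs only, since a WT library with vehicle reached into the range of PF. On the log2 scale AMPKβ1-/- exceeded WT by 1.23 ± 0.20 (± SE; adjusted p = 0.000227) with vehicle and by 1.25 ± 0.19 (adjusted p = 0.000204) with PF. The response to PF was 0.47 in WT (adjusted p = 0.111, and called without WT vehicle library 2, at 0.72 with adjusted p = 0.0215, and by DESeq2, at 0.49 with adjusted p = 0.0498) and 0.49 in AMPKβ1-/- BMDMs (adjusted p = 0.771, and called with the 6 AMPKβ1-/- libraries alone, at 0.49 with adjusted p = 0.0437). Their difference was −0.02, with a 95% interval of −0.61 to 0.56. *Msr1* is GC-poor (38.4%), and once its GC and length trend was taken out it was no longer called between genotypes: the log2 fold change was 0.07 with vehicle (adjusted p = 0.561) and 0.15 with PF (adjusted p = 0.175). The response to PF was then 0.07 in WT (adjusted p = 0.711) and 0.15 in AMPKβ1-/- BMDMs (adjusted p = 0.811).

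*Marco*, a class A receptor of macrophages for bacteria and particles (chromosome 1 from 120474538 to 120505024), had few counts, 13 to 20 counts in a WT library and 27 to 71 in an AMPKβ1-/- library. That was 1.71, 1.85 and 1.69 CPM in WT with vehicle and 1.54, 1.59 and 1.0 CPM with PF. AMPKβ1-/- BMDMs had 4.83, 4.63 and 2.97 CPM with vehicle and 2.61, 4.32 and 2.51 CPM with PF. All of the latter were above all WT libraries. The log2 fold change between genotypes was 1.25 ± 0.28 (adjusted p = 0.00149) with vehicle and 1.21 ± 0.30 (adjusted p = 0.00375) with PF. Unlike *Msr1*, its transcript has 54.5% GC, and the difference was 1.62 with vehicle and passed with either treatment once the trend was removed (adjusted p = 0.000208 and 0.000406). PF gave −0.36 in WT and −0.40 in AMPKβ1-/- BMDMs, without passing the test (adjusted p = 0.444 and 0.982), and the interval of the difference, −0.88 to 0.96, was wide at these counts.

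*Cd36*, a class B receptor for oxidized LDL and fatty acids (chromosome 5 from 17781690 to 17888801), had 60.6, 89.8 and 84.1 CPM in WT BMDMs with vehicle and 92.7, 119 and 146 CPM with PF. AMPKβ1-/- BMDMs had 147, 239 and 252 CPM with vehicle and 271, 214 and 257 CPM with PF. The lowest AMPKβ1-/- library lay just above the highest WT library, 147 against 146 CPM. Between genotypes the log2 fold change was 1.44 ± 0.22 (adjusted p = 0.000207) with vehicle and 1.05 ± 0.21 (adjusted p = 0.00178) with PF. In WT every library with PF exceeded every library with vehicle, and the log2 fold change of 0.61 ± 0.22 did not pass (adjusted p = 0.0726), although it did when WT PF library 1 was left out (0.76, adjusted p = 0.0302). In AMPKβ1-/- BMDMs the groups overlapped (0.22, adjusted p = 0.982), and the responses differed by 0.39, with a 95% interval of −0.26 to 1.05. *Cd36* is as GC-poor as *Msr1* (38.4%). The genotypes differed, the trend removed, by 0.34 with vehicle (adjusted p = 0.0177) and by 0.07 with PF (adjusted p = 0.613), and PF in WT gave 0.16 (adjusted p = 0.394).

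*Scarb1*, the class B receptor that takes up cholesteryl ester from HDL and also moves cholesterol out to HDL (chromosome 5 from 125277087 to 125341094, 9.25 Mb beyond *Prkab1*), had 234, 230.0 and 239.8 CPM in WT BMDMs with vehicle and 222, 187 and 175 CPM with PF. AMPKβ1-/- BMDMs had 156, 148 and 159 CPM with vehicle and 161, 159.9 and 154 CPM with PF. All WT libraries were above all AMPKβ1-/- libraries, opposite to *Cd36* of the same class. The genotypes differed by a log2 fold change of −0.60 ± 0.08 (adjusted p = 7.02e-05) with vehicle and of −0.30 ± 0.08 with PF (adjusted p = 0.00857). The latter missed the threshold with library size alone as the scaling (−0.15, adjusted p = 0.1). PF lowered *Scarb1* in WT (−0.27 ± 0.08, adjusted p = 0.039) and gave 0.04 in AMPKβ1-/- BMDMs, a difference of −0.31 (adjusted p = 0.259) that was called without WT PF library 1 (−0.41, adjusted p = 0.0414). The call in WT was close to the threshold: it was lost with any of 4 WT libraries left out (1 and 3 with vehicle, 2 and 3 with PF, highest adjusted p = 0.205), with DESeq2's size factors (adjusted p = 0.0508) and with the trend removed (−0.29, adjusted p = 0.066). Between genotypes the trend-removed values were −0.75 with vehicle (adjusted p = 2.92e-05) and −0.43 with PF (adjusted p = 0.00112).

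*Stab1* (stabilin-1, a receptor for acetylated LDL and phosphatidylserine, known on macrophages and sinusoidal endothelium; chromosome 14 from 31139013 to 31168641) had the largest fall with PF among the 10. WT BMDMs had 1117, 941 and 1211 CPM with vehicle and 742, 718 and 691 CPM with PF. Levels in AMPKβ1-/- BMDMs were 1112, 815 and 788 CPM with vehicle and 830.1, 828 and 842 CPM with PF. The WT libraries with PF were the lowest of the 12, and those with vehicle were spread in both genotypes. PF lowered it in WT by a log2 fold change of 0.60 ± 0.12 (adjusted p = 0.00587), and it passed under each alternative run, including each library left out (adjusted p from 6.55e-05 to 0.0322). The fall was −0.31 with the GC and length trend removed (adjusted p = 0.00899). PF gave −0.12 in AMPKβ1-/- BMDMs (adjusted p = 0.982). The difference between the responses was −0.49, with a 95% interval of −0.84 to −0.13 (adjusted p = 0.209), and was called without AMPKβ1-/- vehicle library 1 (−0.66, adjusted p = 0.0364), the library at 1112 CPM. Between genotypes it gave −0.27 with vehicle (adjusted p = 0.0593) and 0.22 with PF (adjusted p = 0.14). The former was called without that same library (−0.44, adjusted p = 0.00126) or without WT vehicle library 2 (−0.36, adjusted p = 0.0175), and by limma-voom (−0.28, adjusted p = 0.0487). The latter was called with library size alone as the scaling (0.37, adjusted p = 0.0184) or with the WT and AMPKβ1-/- libraries with PF alone (0.22, adjusted p = 0.0148).

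*Lrp1*, a large endocytic receptor for remnant lipoproteins that also takes part in engulfment (chromosome 10 from 127538161 to 127621148), had the highest counts of the 10. It had 2193, 2223 and 2945 CPM in WT BMDMs with vehicle and 1891, 1766 and 1666 CPM with PF. AMPKβ1-/- BMDMs had 2696, 2356 and 2142 CPM with vehicle and 2400, 2197 and 2520.0 CPM with PF. As for *Stab1*, the WT libraries with PF were the lowest 3 of the 12. PF lowered it in WT (−0.47 ± 0.11, adjusted p = 0.017) and gave −0.02 in AMPKβ1-/- BMDMs, where the groups overlapped, a difference of −0.45 (adjusted p = 0.227). AMPKβ1-/- and WT BMDMs were close with vehicle (−0.03, 95% interval −0.27 to 0.21), and AMPKβ1-/- was higher with PF (0.42 ± 0.11, adjusted p = 0.00736). *Lrp1* is the most GC-rich of the 10 (57.9%), and the trend was removed here too. The fall in WT was then −0.16 (adjusted p = 0.176) and the genotype difference with PF 0.15 (adjusted p = 0.0849), neither of them called. The call of the fall was also lost without WT vehicle library 3, the library at 2945 CPM (−0.32, adjusted p = 0.0666), and without WT PF library 2 or 3 (adjusted p = 0.0624 and 0.0808).

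**Figure D2:**
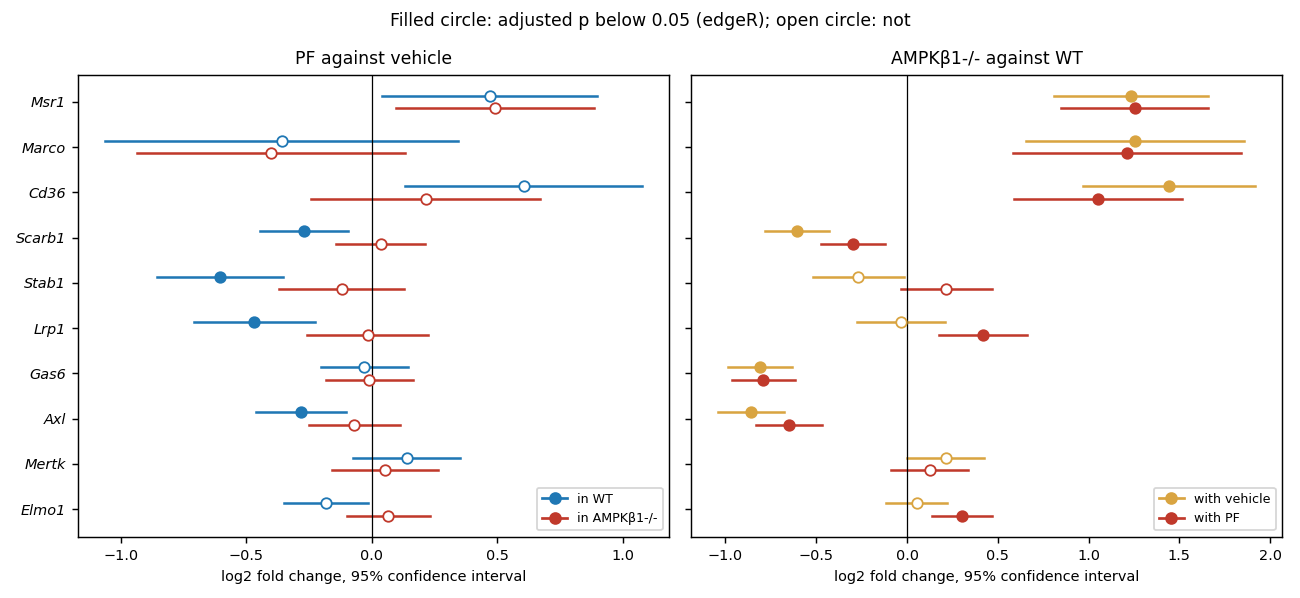
Log2 fold changes (horizontal axes) of the 10 genes with 95% confidence intervals, PF against vehicle on the left and AMPKβ1-/- against WT on the right, with filled circles for an adjusted p below 0.05. On the left the 4 filled circles are all in WT and all below 0, and on the right *Msr1*, *Marco* and *Cd36* lie above 1 with either treatment, where *Gas6*, *Axl* and *Scarb1* lie below 0.

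The bridging ligand *Gas6* (chromosome 8 from 13465374 to 13494490) had 455, 424 and 423 CPM in WT BMDMs with vehicle and 482, 409 and 387 CPM with PF. Levels with loss of AMPKβ1 were 258, 241 and 244 CPM with vehicle and 251, 246 and 242 CPM with PF. The 2 genotypes were far apart and PF and vehicle overlapped in both. AMPKβ1-/- was lower than WT by a log2 fold change of −0.81 ± 0.08 (adjusted p = 1.23e-05) with vehicle and of −0.79 ± 0.08 (adjusted p = 5.19e-06) with PF. PF gave −0.03 in WT, with a 95% interval of −0.20 to 0.14 (adjusted p = 0.817), and −0.01 in AMPKβ1-/- BMDMs. The sign of the former turned with the trend removed (0.17, adjusted p = 0.0633). The genotype difference was smaller then and still called, −0.41 with vehicle (adjusted p = 3.74e-05) and −0.54 with PF (adjusted p = 7.91e-07).

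*Axl*, the TAM receptor kinase with the highest affinity for Gas6 (chromosome 7 from 25757273 to 25788705), was lower together with its ligand. WT BMDMs had 303, 283 and 327 CPM with vehicle and 269, 247 and 236 CPM with PF, and AMPKβ1-/- BMDMs 184, 159 and 159.8 CPM with vehicle and 167, 163 and 149 CPM with PF. Every WT library was above every AMPKβ1-/- library. The log2 fold change between genotypes was −0.86 ± 0.09 (adjusted p = 1.11e-05) with vehicle and −0.65 ± 0.09 (adjusted p = 3.8e-05) with PF. These were −0.59 (adjusted p = 3.8e-06) and −0.53 (adjusted p = 2.14e-06) with the trend removed. PF lowered *Axl* in WT by 0.28 ± 0.08 on the log2 scale (adjusted p = 0.037), with no overlap between the libraries, and gave −0.07 in AMPKβ1-/- BMDMs, a difference of −0.21 (adjusted p = 0.444). The WT value was −0.09 with the trend removed (adjusted p = 0.358), and the call was lost likewise when any of the same 4 WT libraries as for *Scarb1* was left out (highest adjusted p = 0.167).

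*Mertk*, the TAM receptor that clears apoptotic cells in resting macrophages (chromosome 2 from 128698956 to 128802894), stayed in a narrow range. It had 46.1, 47.8 and 53.7 CPM in WT BMDMs with vehicle and 48.6, 53.4 and 60.5 CPM with PF, and 58.0, 58.8 and 54.2 CPM in AMPKβ1-/- BMDMs with vehicle and 64.6, 54.3 and 58.7 CPM with PF. It was called in none of the comparisons. With vehicle AMPKβ1-/- exceeded WT in every library (0.21, adjusted p = 0.0794), opposite in sign to *Axl*, and this was called with upper quartile scaling (0.27, adjusted p = 0.0334), with library size alone (0.42, adjusted p = 0.00568) and without WT vehicle library 3 (0.28, adjusted p = 0.0404). PF gave 0.14 in WT and 0.05 in AMPKβ1-/- BMDMs (adjusted p = 0.321 and 0.985).

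*Elmo1*, which with DOCK1 forms the exchange factor that activates Rac (chromosome 13 from 20090596 to 20608353), had 96.5, 99.0 and 109.5 CPM in WT BMDMs with vehicle and 87.2, 89.0 and 92.6 CPM with PF. The AMPKβ1-/- libraries had 100.4, 113 and 103 CPM with vehicle and 116, 109.8 and 106 CPM with PF. PF libraries were below vehicle libraries in WT, with a log2 fold change of −0.18 that did not pass (adjusted p = 0.114) and passed with the trend removed (−0.28, adjusted p = 0.0207). PF gave 0.07 in AMPKβ1-/- BMDMs, and the responses differed by −0.25 (adjusted p = 0.33). AMPKβ1-/- was higher than WT with PF (0.30 ± 0.08, adjusted p = 0.00561) and gave 0.05 with vehicle (adjusted p = 0.574), where it was called with library size alone (0.26, adjusted p = 0.0145). The sign between genotypes turned with the trend removed, to −0.36 with vehicle (adjusted p = 0.000681) and −0.06 with PF (adjusted p = 0.529).

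Several of these values moved with the GC content of the transcript. Percentiles of GC content were taken over the genes of the count table that were found in GENCODE, before the low-count filter. The GC-poor *Msr1* and *Cd36* lie at the 2.5th percentile and the GC-rich *Gas6*, *Stab1* and *Lrp1* between the 84.5th and 89.7th. Across tested genes the fold change and GC content had a Spearman correlation of −0.69 for PF in WT and of −0.74 for genotype with vehicle. These correlations are across genes, which are not independent replicates. With the trend removed, 2 of 10 were called for PF in WT (*Stab1* and *Elmo1*, both lower, against 6.8% of all genes), 0 in AMPKβ1-/- BMDMs (against 0.0277%) and 0 for the difference (against 1.28%). Between genotypes 6 of 10 were called with vehicle (against 38.2%) and 4 with PF (against 40.7%). *Marco*, *Scarb1*, *Axl* and *Gas6* were the genes called between genotypes in all 4 of these analyses, with and without the trend and with either treatment, each with the same sign.

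**Figure D3:**
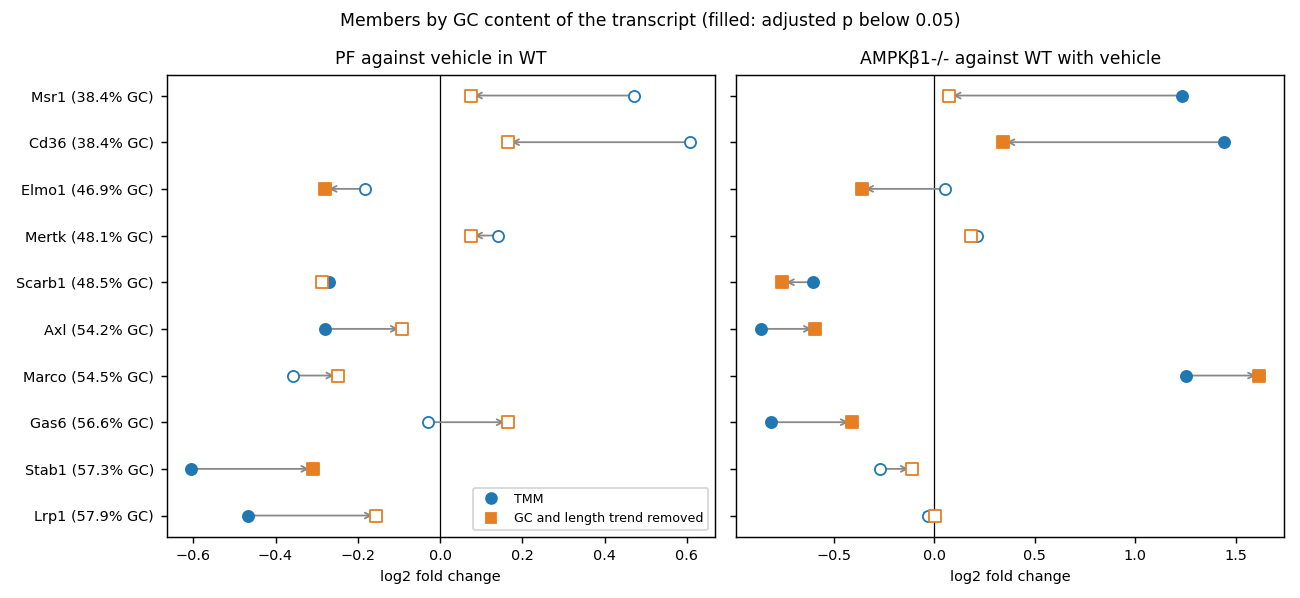
Log2 fold changes (horizontal axes) of the 10 genes in order of GC content (labels, percent), with TMM alone (circles) and after removal of the GC and length trend (squares), filled for an adjusted p below 0.05. With the trend removed *Msr1* moves from 1.23 to 0.07 and *Cd36* from 1.44 to 0.34 between genotypes with vehicle, *Marco* from 1.25 to 1.62, and *Lrp1* from −0.47 to −0.16 with PF in WT.

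Levels of different genes were compared per gene length, as CPM per kb of the union of exons. In WT BMDMs with vehicle the order was *Gas6* (170.4 ± 7.13, mean ± SD, n = 3), *Lrp1* (139 ± 24), *Stab1* (106 ± 13.4), *Axl* (60.5 ± 4.37), *Scarb1* (27.6 ± 0.577), *Cd36* (21.8 ± 4.31), *Mertk* (11.4 ± 0.927), *Elmo1* (8.08 ± 0.546), *Msr1* (3.59 ± 1.17) and *Marco* (0.909 ± 0.0437). The ranges of *Gas6* and *Lrp1* overlapped. With PF in WT the level of *Cd36* stood above that of *Scarb1* (33.2 ± 7.38 against 22.9 ± 2.85, with overlapping libraries). In AMPKβ1-/- BMDMs with vehicle *Lrp1* came first (135 ± 15.8), before *Gas6* (97.2 ± 3.55) and *Stab1* (88.0 ± 17.5), which overlapped. There *Cd36* (59.3 ± 16.1) was above *Axl* (33.3 ± 2.78), and *Msr1* (8.48 ± 0.858) was level with *Elmo1* (8.38 ± 0.531). With PF in AMPKβ1-/- BMDMs *Msr1* (11.9 ± 1.05) was above *Elmo1* (8.79 ± 0.406) and overlapped *Mertk* (13.6 ± 1.19). The order depends in part on the length used. By the longest transcript *Scarb1* (75.8) was above *Axl* (71.4) in WT with vehicle, and *Elmo1* (18.6) above *Mertk* (11.4). In AMPKβ1-/- BMDMs with vehicle *Msr1* (14.8) was then below *Elmo1* (19.3). With PF there *Msr1* (20.8) overlapped *Elmo1* (20.2) and was above *Mertk* (13.8), and *Stab1* (104) was above *Gas6* (96.6). Levels per length are given without removal of the GC and length trend.

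Other genes of these pathways were taken from 3 lists written from general knowledge, with 72 genes, of which 65 were in the counts and 58 were tested. The lists were chosen with earlier results of these data known. Their shares of called genes, here and between genotypes, are therefore a description. With PF in WT, 20 of 58 were called (34.5%, against 15.9% of all genes). Of these, 3 were higher and 17 lower, where 6.99% of all genes were called higher and 8.95% lower. The median log2 fold change of the 58 was −0.10. Of the scavenger receptors and lipoprotein uptake genes 0 rose and 5 fell among 16, of the efferocytosis receptors, bridging molecules and signals 2 rose and 4 fell among 18, and of the genes for engulfment and corpse digestion 1 rose and 8 fell among 24. The 5 with the smallest p all fell: *Ucp2*, a mitochondrial carrier that promotes continued engulfment (−0.64, adjusted p = 0.00073), *Rhog*, a GTPase upstream of Elmo1 (−0.49, adjusted p = 0.00369), *Scarf1*, a scavenger receptor for modified LDL and apoptotic cells (−0.58, adjusted p = 0.00626), *Nr1h3*, the sterol receptor LXRα (−0.50, adjusted p = 0.00626), and *Itgb5*, the β5 integrin that binds Mfge8 (−0.45, adjusted p = 0.00637). Their values lay between −0.42 and −0.21 with the trend removed. In the list of scavenger receptors and lipoprotein uptake genes, calls were both lost and gained with the trend removed. They were then not all lower. All 3 chains of C1q, which bridges apoptotic cells to phagocytes, also fell, *C1qa* by 0.44, *C1qb* by 0.33 and *C1qc* by 0.32 on the log2 scale. *Itgb3*, the β3 integrin, was the 1 DEG (0.81, adjusted p = 0.0179), and these 4 genes were chosen after their values were seen. With the trend removed *C1qa* stood at −0.31 (adjusted p = 0.00232), *C1qb* at −0.22 (adjusted p = 0.0112), *C1qc* at −0.14, no longer called (adjusted p = 0.127), and *Itgb3* at 0.93 (adjusted p = 0.00498). In AMPKβ1-/- BMDMs edgeR called 0 of 58, against 0.0554% of all genes, and DESeq2 and limma-voom called 0 as well. At an unadjusted p below 0.05 it was 0 of 58, against 4.98% of all genes. The difference between the responses was called for *Ucp2* alone (−0.60, adjusted p = 0.0417), 1 of 58, against 0.416% of all genes.

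Between genotypes with vehicle, 42 of 58 were called (72.4%, against 59.7% of all genes). Of these, 16 were higher and 26 lower, where all genes had 29.7% higher and 30% lower. With PF it was 29 of 58 (50%, against 47.1%), 15 higher and 14 lower, where all genes had 24.1% higher and 22.9% lower. In the list of efferocytosis receptors, bridging molecules and signals 4 were higher and 11 lower among 18 with vehicle. *Mfge8*, another bridging protein for phosphatidylserine, was lower like *Gas6*, by −1.23 with vehicle (adjusted p = 5.15e-06) and −0.99 with PF (adjusted p = 5.16e-06). *Itgav*, the αv integrin through which Mfge8 is bound, was higher with vehicle (1.20, adjusted p = 0.000112), while *Cd300a*, a phosphatidylserine receptor, was lower (−0.47, adjusted p = 0.000116). Among scavenger receptors, *Colec12* was higher (1.54, adjusted p = 4.98e-05) and *Cd68* lower (−0.72 with vehicle, adjusted p = 2.7e-05, and −0.64 with PF, adjusted p = 3.85e-05). With PF the cholesterol exporter *Abca1* was higher (1.56, adjusted p = 8.26e-06) and *Itgb3* was lower (−1.68, adjusted p = 2.71e-05). With the trend removed, *Mfge8* stood at −0.89 and −0.84, *Abca1* at 1.31 and *Itgb3* at −1.62, while *Itgav* was 0.36, *Colec12* 0.70 and *Cd68* −0.41 and −0.29.

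**Figure D4:**
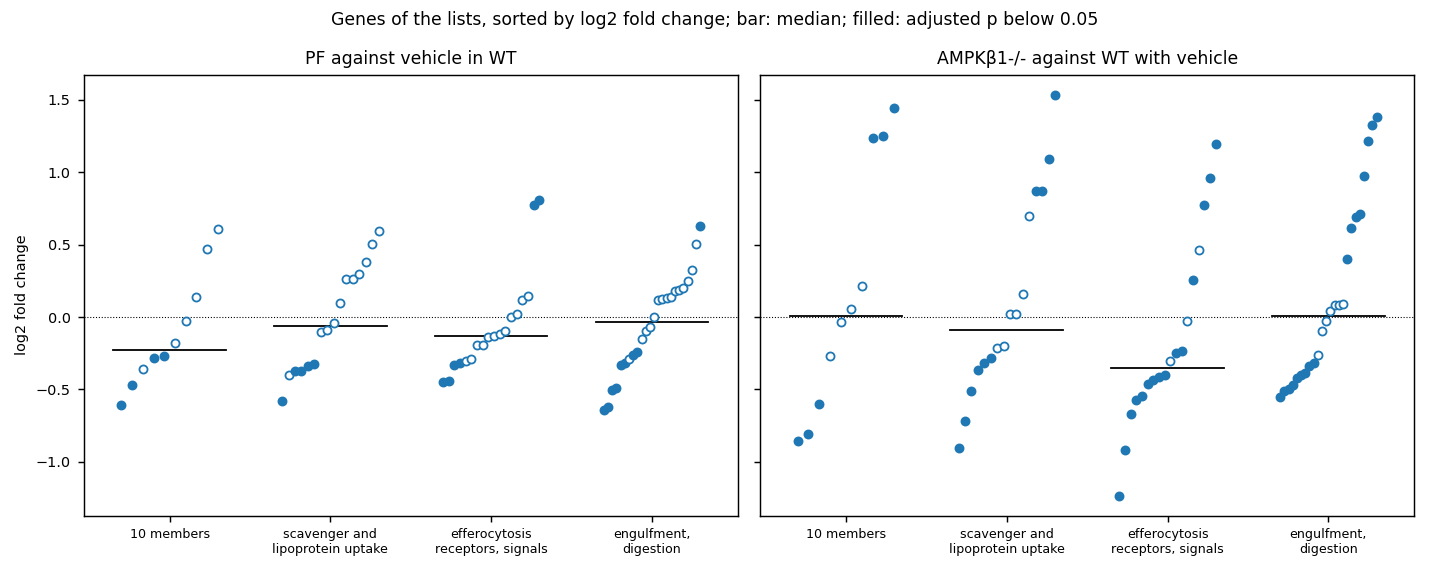
Log2 fold changes (vertical axis) of the 10 genes and of the tested genes of 3 pathway lists, sorted within each list, with a bar at the median and filled circles for an adjusted p below 0.05. With PF in WT most filled circles lie below 0 in every list, and between genotypes with vehicle both directions are filled, with the lowest median in the list of efferocytosis receptors and signals.

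For the 9 genes called in some comparison, the 2 tested genes with the most similar pattern were found by Pearson's r of log2 CPM over the 12 libraries, as a description, since these libraries share their genotype, treatment and GC trend. *Gas6* was most like *Ptpn1* (r = 0.997) and the lysosomal protease gene *Ctsb* (0.993), and *Axl* most like *Myo1f* (0.989) and *Pld3* (0.988). *Cd36* was most like *Acadsb* (0.998) and *Mtpn* (0.997), *Msr1* like *Far1* (0.995) and *Dnm1l* (0.993), and *Marco* like *Flt1* (0.908) and *Rbfox2* (0.88). *Scarb1* was most like *H2-K1* (0.989) and *Nucb1* (0.988), *Stab1* like *Slc43a2* (0.98) and *Abca7* (0.98), *Lrp1* like *Wasf2* (0.995) and *Prrc2b* (0.98), and *Elmo1* like *Itgam* (0.927) and *Osbpl3* (0.926). With the trend removed r stayed above 0.95 for *Axl* and *Gas6* with both partners and fell to −0.28 for *Elmo1* with *Itgam*.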

How the data were processed

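RNA sequencing of 12 BMDM libraries in 4 groups of 3 was analysed. Directional libraries were made from total RNA, and the authors used Trim Galore for trimming and Salmon for quantification. Their versions and the genome build are not given in the sources used here. The deposited values are estimated counts per gene, whole numbers without normalization, for 12960 genes. The columns show the group of a library but not which labelled sample it is, so library 1 to 3 are names only.

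Counts were tested in R 4.3.3 with edgeR 4.0.16 (quasi-likelihood test, robust, TMM, filterByExpr by group), with all 12 libraries in 1 model of 4 group means, after tests on simulated data. P-values were adjusted by Benjamini-Hochberg over the 10822 tested genes. Approximate SE are the log2 fold change over the square root of F. Log2 CPM used a prior count of 2. GENCODE M21 (GRCm38) gave positions, length and GC content for 12703 genes by current and 191 by earlier symbol, and 66 had none. To remove the GC and length trend, natural splines (5 degrees of freedom) were fitted per library and used as an offset. DESeq2 1.42.0, limma 3.58.1 (voom), other scalings and filters, the libraries of a comparison alone and each library left out were alternatives.

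The named genes are the 10 members, for each comparison up to 5 called genes of the pathway lists with the smallest p, the 2 genes most like each called member, and *Prkab1*. *Itgb3* for PF in WT and the C1q genes were added after their values were seen. The result of 1 gene under this rule is not reported here. The members and lists were chosen with earlier results of these data known, so no p-value adjusted over a list is given.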

Additional observations from a re-analysis of the deposited data

How the results depend on the processing

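The 3 libraries of a group limit these results more than depth does, except for *Marco*, where 13 to 71 counts a library leave wide intervals. The labels give no replicate numbers, but the count columns are numbered 1 to 3 in each group without a stated meaning. Over 18 pairs of libraries with the same number, deviations from the group means correlated at −0.18 to 0.32, with 6 above 0.1. In 7 of the 18 pairs the library of the same number was the closest one in the other group. The other group held 3 libraries, so a share of 1 in 3 needs no pairing. Whether libraries of the same number share a source was not tested. With that number as a replicate block, chosen after seeing the data, 5 of the 10 genes were called for PF in WT (4 without it), 0 in AMPKβ1-/- BMDMs, 0 for the difference, and 7 with vehicle and 8 with PF between genotypes (6 and 8 without it). The calls gained were *Cd36* for PF in WT (0.60, adjusted p = 0.0328) and *Stab1* between genotypes with vehicle (−0.27, adjusted p = 0.0402). Over all genes the block gave 1983 calls for PF in WT (1725 without it). Between genotypes it gave 6446 with vehicle (6465 without it) and 5185 with PF (5094 without it). The cause of the changes below was not tested. Library size alone moved the median of all genes by 0.21 (from −0.03 to 0.18) between genotypes with vehicle and by 0.15 with PF.

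The number of the 10 genes called for PF in WT was 4, and it was 2 with library size alone, 2 with the GC and length trend removed, 1 with the libraries of the comparison alone and from 1 to 5 with a library left out (1 without the third library of WT with vehicle, and 1 without the second or the third of WT with PF). Calls over all genes, 1725 in the main run, moved too. They were 1632 with library size alone, 736 with the trend removed and 419 with the libraries of the comparison alone. With a library left out they were 346 to 3243, with 10472 to 10937 genes tested in these runs. For PF in AMPKβ1-/- BMDMs the number of the 10 called was 0, and 1 (*Msr1*, adjusted p = 0.0437) with the libraries of the comparison alone. Over all genes these were 6 and 62. For the difference between the responses the number of the 10 called was 0, and 0 to 1 with a library left out (45 and 5 to 284 over all genes). Between genotypes with PF it was 8, and 4 with the trend removed (5094 and 4403 over all genes). Of the pathway genes 20 were called for PF in WT, 9 with the libraries of the comparison alone and 7 to 23 with a library left out. For the difference it was 1, with 0 by DESeq2's size factors, 3 with the trend removed and 0 to 2 with a library left out. Over all genes the difference was called for 32 with DESeq2's size factors and for 138 with the trend removed. The latter alternatives for the pathway genes were chosen after seeing the data.

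Directions turned only where the main log2 fold change was small or with the trend removed. For PF in WT, *Gas6* (main −0.03) gave 0.00074 with upper quartile scaling, 0.0499 with library size alone, 0.17 with the trend removed and −0.13 to 0.0446 with a library left out. For PF in AMPKβ1-/- BMDMs, *Gas6* (main −0.01) gave 0.00267 with DESeq2's size factors, 0.00979 with library size alone, 0.00234 with DESeq2, 0.0359 with the trend removed and −0.0288 to 0.0213 with a library left out. There *Lrp1* gave 0.0044 with library size alone and *Cd36* −0.11 with the trend removed, and with a library left out *Lrp1* ranged from −0.0903 to 0.0772, *Stab1* from −0.21 to 0.0564, *Axl* from −0.11 to 0.00156 and *Mertk* from −0.0142 to 0.11. For the difference between the responses, *Msr1* (main −0.02) gave 0.0129 with upper quartile scaling, 0.038 with library size alone, 0.013 with limma-voom and −0.24 to 0.23 with a library left out. *Gas6* gave 0.0124, 0.0401 and 0.13 with upper quartile scaling, library size alone and the trend removed, and −0.12 to 0.047 with a library left out, where *Marco* ranged from −0.0929 to 0.35. Between genotypes with vehicle, *Lrp1* (main −0.03) gave 0.024 with upper quartile scaling, 0.17 with library size alone, 0.0043 with the trend removed and −0.13 to 0.12 with a library left out. *Elmo1* gave −0.36 with vehicle and −0.0578 with PF with the trend removed.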
